A study of Mus musculus with 2 samples.

Results

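Serglycin, the lysozymes, the granule membrane proteins and the large subunits of the AP-3 adaptor were examined in granulocyte-monocyte progenitors (GMP), marrow cells from which neutrophils and monocytes form. The set holds 9 genes named by role and matched by symbol (Srgn, Lyz1, Lyz2, Cd63, Cd68, Lamp1, Lamp2, Ap3b1 and Ap3d1), out of 21474 protein-coding genes with a row in the deposited tables, and all 9 had a row. The labels give 1 group of primary cells from male adult C57BL/6J mice of 5 to 6 weeks, with no mutant allele and no treatment named, sequenced as total RNA in 2 libraries of 100 cells each with added spike-ins. The libraries are numbered 1 and 2 by the biological replicate in the labels, share a donor identifier and are not stated to come from separate animals, so each SD covers the variation between these libraries alone, and that variation may be technical. Replicate 1 held 40509954 expected counts (reads estimated per gene) while replicate 2 had 35675702. Because there is 1 group, the data give levels, transcript forms and the spread between libraries, and no test between conditions.

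Primary granules of neutrophils are built in promyelocytes, just after the GMP stage, and are related to lysosomes. Serglycin is a small proteoglycan whose negatively charged sugar chains pack basic proteins in the granule core. Mice without it store little neutrophil elastase. AP-3 is a coat complex at endosomes and the trans-Golgi that sends membrane proteins such as CD63 and the LAMP proteins to lysosomes and lysosome-related organelles. It reads short signals in their cytosolic tails, among them a tyrosine followed at the third residue by a bulky hydrophobic one. Loss of Ap3b1 gives the pearl mouse and loss of Ap3d1 the mocha mouse, and human AP3B1 deficiency is Hermansky-Pudlak syndrome with neutropenia.

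Matches to the tyrosine signal described above can be seen at the very end of the coding sequences of the membrane members. Each line below holds the last 15 codons and the stop codon on mm10, from the GENCODE M21 transcript. Capitals run from the tyrosine codon through the hydrophobic codon that ends the match. The regions are chr8:13174511-13174558 (plus strand) for Lamp1, chrX:38405432-38405479, chrX:38421712-38421759 and chrX:38402139-38402186 (minus strand) for the 2A, 2B and 2C forms of Lamp2, chr10:128912693-128912740 (plus strand) for Cd63 and chr11:69664371-69664418 (minus strand) for Cd68.
Lamp1: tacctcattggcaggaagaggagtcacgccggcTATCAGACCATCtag
Lamp2, LAMP-2A tail: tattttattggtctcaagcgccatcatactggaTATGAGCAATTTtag
Lamp2, LAMP-2B tail: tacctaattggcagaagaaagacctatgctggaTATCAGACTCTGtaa
Lamp2, LAMP-2C tail: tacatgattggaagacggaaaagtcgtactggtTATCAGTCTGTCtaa
Cd63: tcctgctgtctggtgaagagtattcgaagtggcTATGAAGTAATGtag
Cd68: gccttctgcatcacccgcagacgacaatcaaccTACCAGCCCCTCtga

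In all 4 membrane members the match lay directly before the stop codon. The pattern searched was TAT or TAC, then NNNNNN, then a codon for phenylalanine, isoleucine, leucine, methionine or valine, in frame and on the coding strand. It occurred within the last 15 codons of 2163 of 21503 genes with a complete coding sequence, or 10.1%, and directly before the stop in 224, or 1.04%. A match describes these letters and is not a measured binding site.

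The coding sequence of serglycin shows where its sugar chains attach. The line below holds chr10:62494968-62495087 (minus strand, a single exon), with capitals on an unbroken run of 10 serine-glycine codon pairs, the attachment sites of glycosaminoglycan chains. The flanks are 10 codons on each side. Among the 21503 genes searched in frame on the coding strand for alternating serine and glycine codons, 1 gene, Srgn itself, held a run as long.
Srgn: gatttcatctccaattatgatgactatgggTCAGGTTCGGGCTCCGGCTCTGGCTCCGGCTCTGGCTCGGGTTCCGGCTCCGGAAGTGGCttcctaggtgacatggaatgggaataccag

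Lyz1 and Lyz2 are neighbouring copies, so it matters whether reads can tell them apart. Their coding sequences of 447 bases differ at 22 positions, an identity of 95.1%. The lines below hold the 150 coding bases with the most differences, with capitals at the 15 positions that differ. They lie within chr10:117280786-117282236 for Lyz2 and chr10:117291174-117292832 for Lyz1, both on the minus strand and each interrupted by an intron.
Lyz2: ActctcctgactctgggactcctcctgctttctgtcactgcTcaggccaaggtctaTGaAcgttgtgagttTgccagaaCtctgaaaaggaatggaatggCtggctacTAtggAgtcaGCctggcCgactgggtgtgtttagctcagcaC
Lyz1: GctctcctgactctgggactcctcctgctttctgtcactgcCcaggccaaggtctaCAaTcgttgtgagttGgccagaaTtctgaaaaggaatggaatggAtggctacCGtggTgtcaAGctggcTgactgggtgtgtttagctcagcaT

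The longest stretch found in both transcripts was 118 bases. The deposited effective lengths correspond to a mean fragment of 161 bases in replicate 1 and 158 in replicate 2. Of all windows of 161 bases in the Lyz2 transcript, 0 of 1156 occurred in the Lyz1 transcript. Of windows of 50 bases, 195 of 1267 (15.4%) did.

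Members were detected with the exception of Lyz1. Of the 9, 8 reached 1 TPM (transcript abundance scaled for length and for the library's total) in both libraries, and the same 8 reached 10 TPM on average. Among all 21474 protein-coding genes 45.6% reached 1 TPM in both libraries, and 6095 reached 10 TPM on average. The median of the 9 members was 80.0 TPM and the median protein-coding gene stood at 0.55 TPM. In pooled cells, fewer cells expressing a gene and less RNA per cell cannot be told apart.

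**Figure D1:**
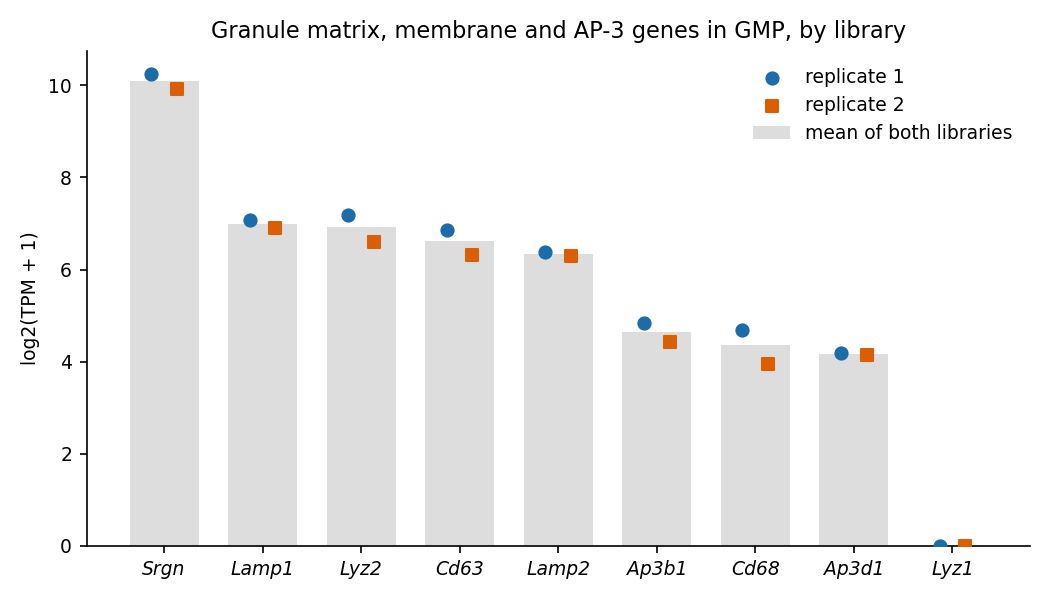
Level of each of the 9 genes as log2(TPM + 1), with replicate 1 as circles, replicate 2 as squares and bars at the mean of both libraries. Srgn stands above all others, Lamp1, Lyz2, Cd63 and Lamp2 form a middle tier, Ap3b1, Cd68 and Ap3d1 a lower one, and Lyz1 is at 0.

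Srgn, the granule matrix proteoglycan (ENSMUSG00000020077, chromosome 10, 62493833 to 62527451 on mm10, as for all spans here), was the most abundant of the 9. It had 1209.6 TPM in replicate 1 and 971 TPM in replicate 2, a mean of 1090.1 ± 169 TPM (SD, n = 2), from 28640 and 20240 counts. These made up 0.0707% of all counts in replicate 1 (95% Wilson interval 0.0699 to 0.0715; this interval and the floors given for 0 counts cover counting error only). Srgn ranked 89 of 21474 protein-coding genes. In each library its lowest ratio to any other member was against Lyz2 or Lamp1, 8.41 over Lyz2 in replicate 1 and 8.13 over Lamp1 in replicate 2.

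Srgn can be set beside genes for proteins of the primary granules. The message of Mpo, myeloperoxidase, stood 5.23-fold over Srgn in replicate 1 and 6.80-fold in replicate 2. That of Elane, neutrophil elastase, stood 2.47-fold and 3.24-fold over it. Srgn over Prtn3, proteinase 3, was 1.12 in replicate 1 and 0.534 in replicate 2, so their order turned between the libraries. Srgn and Ctsg, cathepsin G, were close, with Srgn over Ctsg at 1.13 in replicate 1 and 0.941 in replicate 2. Bpi, a bactericidal protein of these granules in humans, had 0 counts in both libraries, as did 42.5% of protein-coding genes.

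Enzymes that build the chains of serglycin were present at much lower levels. Of 20 genes for chain synthesis and sulfation, 14 reached 1 TPM in both libraries. Csgalnact2, which starts and extends chondroitin chains, led with 65.6 TPM in replicate 1 and 56.1 in replicate 2. It was followed by Chst12, a chondroitin 4-sulfotransferase, at 37.8 and 41.1 TPM and by the polymerase Chsy1 at 22.4 and 20.1 TPM. Chst3, Chst7 and Chsy3 had 0 counts in both libraries. Xylt1, which adds the xylose that links the chain to serine, stood at 13.1 and 14.1 TPM. It was named for that role after its values were seen.

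Lysozyme, which cuts bacterial cell walls, came from Lyz2 and not detectably from Lyz1. Lyz2, the myeloid lysozyme (ENSMUSG00000069516, chromosome 10, 117277331 to 117282321), had 144 TPM in replicate 1 and 95.6 TPM in replicate 2, a mean of 120 ± 34.1 TPM (SD, n = 2), from 4674 and 2779 counts. Lyz1 (ENSMUSG00000069515, 117287797 to 117292868), the lysozyme of intestinal Paneth cells, had 0 counts in both libraries. At 0 counts a true level of up to 3 counts remains possible, which is 0.0925 TPM in replicate 1 and 0.103 TPM in replicate 2. Lyz2 was therefore at least 1555-fold higher than Lyz1 in replicate 1 and at least 925-fold higher in replicate 2, with the floor taken per library. The deposited posterior SD of the Lyz2 count was 0.08 in replicate 1 and 0.11 in replicate 2 (it measures how uncertain the assignment of reads was). The 8 other genes of the lysozyme family listed, goose-type lysozymes included, had 0 counts in both libraries.

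The membrane members formed a tier around 100 TPM, with Cd68 below it. Lamp1, a heavily glycosylated protein of the lysosome membrane (ENSMUSG00000031447, chromosome 8, 13159161 to 13175338), had 133 TPM in replicate 1 and 119 TPM in replicate 2, a mean of 126 ± 9.72 TPM (SD, n = 2), from 8194 and 6565 counts. Cd63, a tetraspanin and a classical membrane marker of primary granules (ENSMUSG00000025351, chromosome 10, 128900989 to 128912822), had 116 TPM and 78.3 TPM, a mean of 96.9 ± 26.4 TPM, from 2500 and 1525 counts. Lamp1 was thus the steadier of these between the libraries. Lamp2, the companion of Lamp1 and a receptor of chaperone-mediated autophagy (ENSMUSG00000016534, chromosome X, 38401357 to 38456454), had 82.5 TPM and 77.4 TPM, a mean of 80.0 ± 3.58 TPM, from 6706 and 5681 counts. Lamp1 stood 1.61-fold over Lamp2 in replicate 1 and 1.54-fold in replicate 2. Cd68, a mucin-like member of the LAMP family known as macrosialin and best known from macrophages (ENSMUSG00000018774, chromosome 11, 69664213 to 69666153), had 24.9 TPM and 14.3 TPM, a mean of 19.6 ± 7.50 TPM, from 562 and 393 counts.

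Other proteins of these families varied widely. Among tetraspanins, Cd53 had 68.7 TPM in replicate 1 and 73.3 in replicate 2, and Cd37, a leukocyte tetraspanin, had 49.4 and 84.8 TPM. Cd81 was at 35.6 and 30.5 TPM, Cd9 at 10.7 and 13.2 TPM, Cd82 at 10.9 and 8.52 TPM and Cd151 at 6.51 and 9.03 TPM. Each of these 6 was below Cd63 in replicate 1, and Cd37 was above it in replicate 2. Scarb2, the lysosome membrane protein LIMP-2, stood at 13.9 and 9.34 TPM. Lamp3 had 1 count in each library and Lamp5, a neuronal and dendritic cell LAMP, had 0.

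The AP-3 members lay, with Cd68, below the other detected members. Ap3b1, the beta subunit (ENSMUSG00000021686, chromosome 13, 94358960 to 94566317), had 27.7 TPM in replicate 1 and 20.5 TPM in replicate 2, a mean of 24.1 ± 5.06 TPM (SD, n = 2), from 3139 and 2078 counts. Ap3d1, the delta subunit (ENSMUSG00000020198, chromosome 10, 80706956 to 80742264), had 17.1 TPM and 16.6 TPM, a mean of 16.9 ± 0.325 TPM, from 2293 and 1992 counts. Ap3b1 stood over Ap3d1 by 1.62-fold in replicate 1 and 1.24-fold in replicate 2. Each complex holds a single copy of either subunit.

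The rest of the complex was represented by its widely expressed forms. The small subunit Ap3s1 had 261 TPM in replicate 1 and 231 TPM in replicate 2, which is 9.42-fold and 11.2-fold over Ap3b1. Ap3m1, the medium subunit, which binds tyrosine signals of the type searched above, had 36.5 and 26.6 TPM. Its counts were nearly equal, 2348 and 2387, and the deposited length that divides them was 2353 bases in replicate 1 and 3584 in replicate 2. Ap3s2, the other small subunit, had 8.08 and 8.35 TPM. The subunits of the neuronal complex were near or at 0, with Ap3m2 at 1.02 and 0.48 TPM and Ap3b2 at 0 counts in both libraries. Ap3s1 has processed pseudogenes, and reads shared with them leave some uncertainty in its value. Ap3s1-ps1 was given 92.4 and 123 counts and Ap3s1-ps2 43.8 and 16.0, against 10096 and 7986 for Ap3s1. The deposited posterior SD of the Ap3s1 count was 9.86 in replicate 1 and 9.84 in replicate 2.

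**Figure D2:**
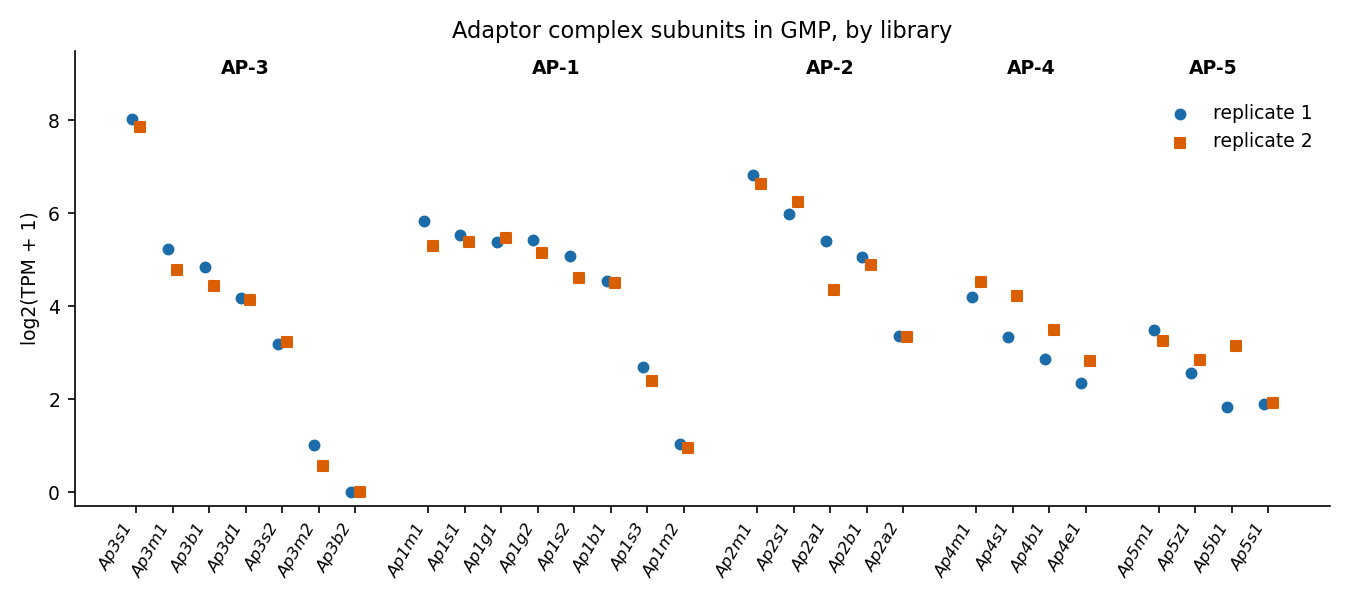
Subunits of the 5 adaptor complexes as log2(TPM + 1), with replicate 1 as circles and replicate 2 as squares, ordered by mean within each complex. Ap3s1 is the highest of the 28 subunits, the AP-3 members Ap3b1 and Ap3d1 lie near the middle, and the neuronal subunit Ap3b2 is at 0.

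Of the 21 subunit genes of the other adaptors, 20 reached 1 TPM in both libraries, with a median of 19.6 TPM. The highest were Ap2m1 at 112 and 97.9 TPM and Ap2s1 at 62.2 and 74.8 TPM, of the endocytic AP-2 complex, and Ap1m1 at 56.0 and 38.6 TPM, of the Golgi AP-1 complex. Ap2a1, an alpha subunit of AP-2, was more than 2-fold apart in TPM, at 41.7 and 19.5, but not in CPM (counts scaled by the library total), from 1539 and 1389 counts. Its deposited length was 1417 bases in replicate 1 and 2875 in replicate 2. The BLOC complexes and their partners Rab32 and Rab38 act beside AP-3 in making lysosome-related organelles, and 15 of 15 of their genes reached 1 TPM in both libraries. Bloc1s1 led with 59.4 and 67.2 TPM, then Bloc1s2 with 53.7 and 61.4 TPM and Rab32 with 48.6 and 40.1 TPM.

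Tethering and release factors of lysosomes and granules were likewise expressed. All 6 genes of the HOPS tethering complex reached 1 TPM in both libraries, led by Vps16 at 74.1 and 61.9 TPM, Vps39 at 14.4 and 26.5 TPM and Vps41 at 15.2 and 15.7 TPM. Of 14 matched genes of granule exocytosis 12 did, led by the vesicle SNARE gene Vamp8 at 114 and 120 TPM. The syntaxin-binding protein gene Stxbp2 followed at 92.5 and 108 TPM and Stx4a at 42.4 and 50.2 TPM. Transcription factors of the Tfeb family, which includes activators of lysosome genes, were all above 1 TPM. Tfec had 39.7 and 40.7 TPM, Tfe3 13.3 and 8.39 TPM and Tfeb 3.22 and 4.54 TPM. In all, 86 of 108 companion genes in 11 lists reached 1 TPM in both libraries, against 45.6% of all protein-coding genes.

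**Figure D3:**
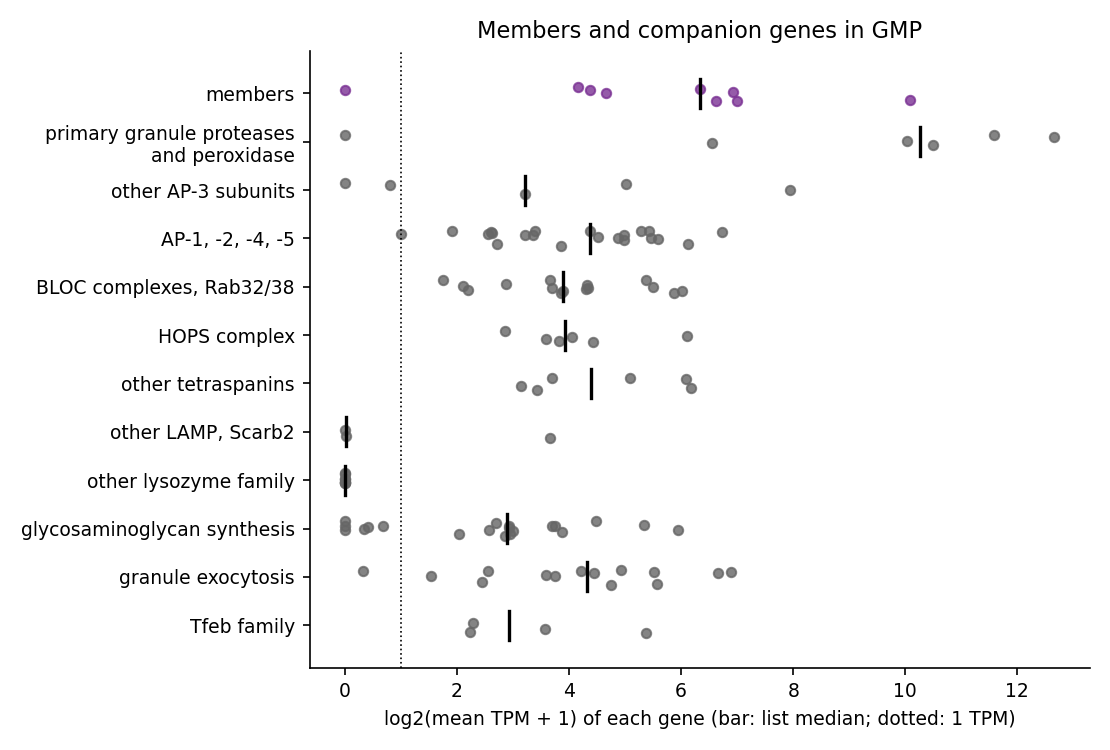
Each point is 1 gene at its log2(mean TPM + 1) over both libraries, in rows by list, with a bar at the list's median and a dotted line at 1 TPM. The members span from Lyz1 at 0 to Srgn, and the other lysozyme family genes all sit at 0.

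Transcript forms were read from the deposited share of each gene's TPM per transcript. For Lamp2 the 3 full-length forms share 8 coding exons and differ in the ninth, which encodes the tails printed above. The LAMP-2B form held 56.7% of Lamp2 TPM in replicate 1 and 62.0% in replicate 2, or 59.3 ± 3.79% (SD, n = 2). The LAMP-2A form, which serves chaperone-mediated autophagy, held 30.7% and 32.1%, or 31.4 ± 0.990%. The LAMP-2C form held 0% and 1.03%, from 0 and 42.4 counts.

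LAMP-2B thus stood 1.85-fold over LAMP-2A in replicate 1 and 1.93-fold in replicate 2, a ratio that differed little between the libraries. The rest fell on incomplete transcripts. A processed transcript with 2 exons held 8.87% in replicate 1 and 3.78% in replicate 2, and a retained intron form held 3.83% and 1.12%.

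**Figure D4:**
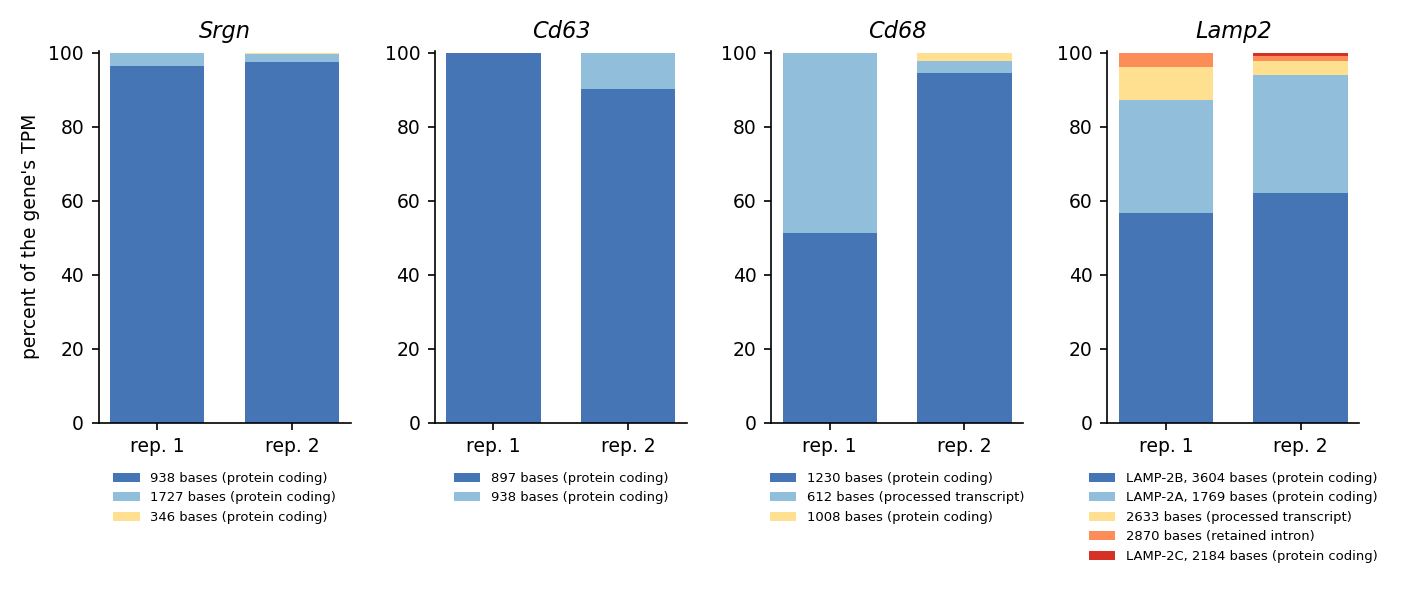
Share of each gene's TPM on each transcript with a value above 0, in percent, for Srgn, Cd63, Cd68 and Lamp2 in both libraries, with the length and annotated type of each transcript in the legends. LAMP-2B exceeds LAMP-2A in both libraries, whereas the short processed transcript takes 48.9% of Cd68 in replicate 1 and 3.31% in replicate 2.

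Cd68 differed between libraries by its forms. The full-length transcript had 12.7 TPM in replicate 1 and 13.5 TPM in replicate 2, from 400 and 380 counts. A shorter processed transcript, of 612 bases and with no annotated coding sequence, had 12.2 TPM and 0.47 TPM, from 162 and 5.65 counts. The higher Cd68 level of replicate 1 thus lay on the short transcript, while the full-length one was lower there. Splits among overlapping forms are estimates, and the deposited length used for the gene, 928 bases in replicate 1 and 1205 in replicate 2, followed the split.

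Srgn and Cd63 rested mainly on a single form. The transcript of 938 bases held 96.4% of Srgn TPM in replicate 1 and 97.5% in replicate 2, and a form with an upstream start held 3.60% and 2.14%. A single Cd63 transcript held 100% and 90.2%, with the other at 0 and 157 counts. Cd63 also has the pseudogene Cd63-ps, given 15.7 and 26.6 counts against the Cd63 counts given above. The tables list 1 transcript for each of Lamp1, Lyz1, Lyz2, Ap3b1 and Ap3d1.

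In the order of mean levels, some neighbours were well apart and others close. Srgn lay above Lamp1 in both libraries with no overlap, as did Lamp2 above Ap3b1 and Ap3d1 above Lyz1. The ranges over the libraries overlapped for Lamp1 and Lyz2, Lyz2 and Cd63, Cd63 and Lamp2, Ap3b1 and Cd68, and Cd68 and Ap3d1. Within each library, Lyz2 stood over Cd63 by 1.25-fold in replicate 1 and 1.22-fold in replicate 2, and Ap3b1 over Cd68 by 1.11-fold and 1.43-fold. Cd63 stood over Lamp2 by 1.40-fold and 1.01-fold. The order turned between the libraries for the other overlapping pairs, with Lamp1 over Lyz2 at 0.925 and 1.25 and Cd68 over Ap3d1 at 1.46 and 0.862.

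As whole genes, all 8 detected members were higher in replicate 1. Among the 6095 protein-coding genes at 10 TPM or more on average, 45.6% were. Cd68 was higher there through its short transcript alone. Lamp2 differed most on its incomplete transcripts, with 7.31 and 2.93 TPM for the processed one and 3.16 and 0.87 TPM for the retained intron form. Its LAMP-2B form had 46.7 and 48.0 TPM, LAMP-2A 25.3 and 24.8 TPM and LAMP-2C 0 and 0.80 TPM. Together these full-length forms were slightly higher in replicate 2, so the lead of replicate 1 for Lamp2 lay on the incomplete transcripts. The 8 members had a median log2 ratio (replicate 2 minus replicate 1) of -0.37, and the 6095 genes one of 0.034. The choice of scaling moved the share of all genes between 40.8% (CPM) and 52.2% (DESeq2 size factors), with 8 members higher in replicate 1 under each. No member was more than 2-fold apart (0 of 8), and 3.13% of all genes at that level were, 1.28% with the higher value in replicate 1. The ratios are those of 2 libraries of 1 group and were not tested.

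**Figure D5:**
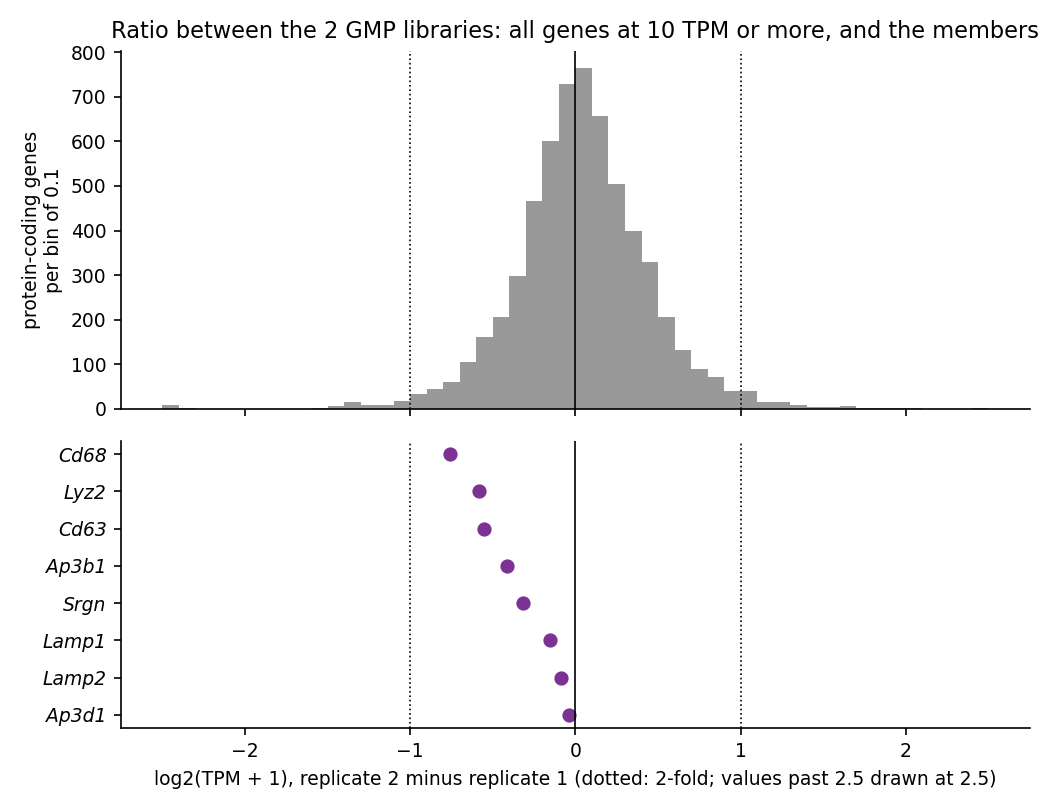
Log2 ratio of TPM + 1, replicate 2 minus replicate 1, as a histogram over 6095 protein-coding genes at 10 TPM or more on average (top) and as a point for each of the 8 members at that level (bottom), with dotted lines at 2-fold. All 8 points lie left of 0 and right of the lower 2-fold line.

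The size of the ratio varied among members. Cd68 was at -0.76 on the log2(TPM + 1) scale, and 92.7% of the 6095 genes had a smaller absolute ratio. This value depended on the unit: on CPM Cd68 was at -0.31, smaller in size than Lyz2 at -0.56, Cd63 at -0.52, Ap3b1 at -0.41 and Srgn at -0.32, and with TMM scaling of the counts it likewise came after these 4. On log2(TPM + 1), Lyz2 was at -0.58, with 86.7% smaller, and Cd63 at -0.56, with 84.8% smaller. Ap3b1 was at -0.41 and Srgn at -0.32. Lamp1 at -0.16, Lamp2 at -0.090 and Ap3d1 at -0.037 lay within the median absolute ratio of all these genes, 0.23. The coefficient of variation along edgeR's trend, at the abundance of each member, ran from 0.124 for Lyz2 to 0.144 for Cd63, with Cd68 apart at 0.274.

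Markers of other cell types were read beside the members. Genes that mark GMP were high, led by Mpo, and 7 of 7 reached 10 TPM on average, as did 6095 of 21474 protein-coding genes. The 5 stem and early progenitor genes, with Hlf the highest on average at 4.85 and 5.29 TPM, summed to 8.75 and 11.7 TPM, with the stem cell antigen gene Ly6a at 0 counts in both libraries. The 8 late neutrophil genes summed to 115 TPM in replicate 1 and 20.9 TPM in replicate 2. Most were lower in replicate 2. Ngp, the highest on average, had 44.7 and 0.88 TPM, Camp 24.4 and 1.99 TPM and Lcn2 24.3 and 11.9 TPM. Retnlg had 12.4 and 0.08 TPM, Ltf 3.71 and 0.01 TPM and Mmp9 0.46 and 0 TPM. Cxcr2 changed less, at 4.14 and 3.77 TPM, and Mmp8 was higher in replicate 2, at 1.07 and 2.24 TPM. The 4 basophil and mast cell genes, led by Mcpt8, summed to 130 and 84.7 TPM. The 5 monocyte genes summed to 2252 and 2030 TPM, of which Ly6c2 alone had 2027 and 1809 TPM. The 7 macrophage genes, led by Adgre1, summed to 6.48 and 8.07 TPM, with C1qc and Cd5l at 0 counts in both libraries. Any part of cells of these types in the higher member levels of replicate 1 was not tested. Platelet, erythroid, lymphoid and stroma lists each summed to at most 10.6 TPM in either library, with Itga2b, Car1, Vpreb1 and Cdh5 the highest on average. Genes at 0 counts in both libraries were Ppbp for platelets, Hbb-bs for erythroid cells, Cd79a, Ebf1, Pax5, Cd3e, Cd3d, Ncr1 and Il7r for lymphoid cells, and Col1a1, Cxcl12 and Lepr for stroma.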

How the data were processed

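Each library has a gene table and a transcript table. Text files deposited beside them name the build, mm10, and annotation M4. The aligner, counter and strand setting were not given in the sources used here. The authors deposited expected counts (estimated reads), TPM and FPKM (both scaled by effective length) and, per transcript, the percent of the gene's TPM. Symbols, spans and sequences were taken from GENCODE M21 (GRCm38, the same build), matched by identifier without version for 42462 of 43346 Ensembl rows. Of 109 companion genes, Vamp7 had no matching row. Ratios are on log2(TPM + 1), which understates changes of low genes, and were counted at 10 TPM or more on average. The replicate spread was estimated with edgeR 4.0.16 under R 4.3.3 after rounding each expected count to a whole number, using TMM, an intercept alone and 10 counts in 1 library; DESeq2 1.42.0 was an alternative. No gene was tested. Tables and sequences were handled in Python 3.11.15 with pandas 2.3.3, and Biopython 1.88 aligned the lysozymes. The call of genes over 2-fold apart and the edgeR spread were each tried on simulated counts, and the other steps were not.

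The members, the lists, the named genes and the alternatives were chosen with earlier results of these data known. All 9 members were named, with every other AP-3, LAMP and tetraspanin gene listed. Of other lists the 3 highest, any over 2-fold apart at 10 TPM or more, and genes at 0 counts where 5 or fewer were named, as were Ctsg and Xylt1 outside this rule. Of each marker list the highest gene by mean TPM and the genes at 0 were named. The late neutrophil genes other than Ngp were added after their values were seen. Other adaptors, pseudogenes and markers served only as context. The alternatives changed the pseudocount, the unit, the filter or the scaling, used DESeq2, or left out a replicate. Of the genes overlapping a member's span, Grtp1 (opposite strand of Lamp1) and Gm25109 (within Ap3b1) had 0 counts in both libraries.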

Additional observations from a re-analysis of the deposited data

How the results depend on the processing

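The 8 members at 1 TPM or more in both libraries, the 0 over 2-fold apart and the 8 higher in replicate 1 were the same under every alternative run for each. For the 8 higher in replicate 1, these changed only the pseudocount, unit or scaling of whole-gene values. That count was not repeated on full-length transcripts, where Cd68 reversed and the Lamp2 forms together were also slightly higher in replicate 2. LAMP-2B, the leading Lamp2 form, had a log2 ratio of 0.038. The 86 companion genes became 51 at a minimum of 10 TPM. The median percentile of the members among protein-coding genes, 96.2, was 92.1 among genes at 1 TPM or more and 92.2 on CPM, a unit that ignores length. The first follows from the smaller pool, and for CPM the cause was not tested. The log2 ratio of Lyz2 to Lyz1 was 6.92 with pseudocount 1 and 10.2 with 0.1, since Lyz1 is at 0, so only the bound is to be read. The log2 ratio of Cd68 between the libraries, -0.76, reversed to 0.080 on the full-length transcript alone, an alternative added after seeing the data, as was the count higher in replicate 1. It was -0.38 with TMM, -0.39 with DESeq2 size factors and -0.31 on CPM, and under these 3 it was no longer the largest among the members. Scaling without Gm42418, Gm26917, Mir6236 and Lars2 raised every detected member, Srgn from 1090 to 1493 TPM. Such a rise is built in, since the remaining genes are scaled up to the same total. LAMP-2B held 73.4% of Lamp2 expected counts, which are not divided by length, and the main Srgn transcript 94.3% of those of Srgn. The edgeR spread over all genes, as the median of its trend, was 0.270, and the same median was 0.322 with DESeq2. The single common value from edgeR on these rows was higher, at 0.593. With either library left out, the median percentile was 96.1 to 96.4, the Lyz2 ratio 6.59 to 7.18 and the companion count 87 to 89. No paired analysis was possible because the series holds 1 group. With 2 libraries, no SD is precise, and Cd68, at 562 and 393 counts, is the thinnest of the detected members.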
